A study of Mus musculus with 9 samples.

Results

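Toll-like receptors (TLRs) are the membrane sensors with which microglia read microbial products and molecules released by damaged cells, and CD14 is the surface protein that hands lipopolysaccharide to TLR4. The group was defined by name: Tlr1, Tlr2, Tlr3, Tlr4, Tlr6, Tlr7, Tlr8, Tlr9, Tlr13 and Cd14, each represented by its brightest probe set among those annotated to that symbol alone. By this rule 9 of the 10 genes could be measured among 17097 genes in all, and Tlr13, a murine sensor of bacterial ribosomal RNA, was not analysed here. The transcripts were measured on 9 Affymetrix MG-430 PM strip arrays of primary microglia, with 3 arrays of control cells, 3 of cells kept for 6 h in glioma-conditioned medium (GCM) from LN18 cells and 3 of cells kept for 6 h in GCM from U87-MG cells. LN18 and U87-MG are established human glioblastoma cell lines. All 9 cultures came from the cortices of newborn C57BL/6J mice, with no transgene or deletion in any group, and the microglia were shaken off mixed glial cultures before use. The sources used here do not state which change of medium the control cells received, so the groups compare GCM with those controls as they were kept. The question these arrays address is how the TLR system of microglia responded to the soluble products of 2 glioma cell lines.

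TLRs work as dimers, and their location follows from what they detect. TLR4, with MD-2 and CD14, recognizes lipopolysaccharide, while TLR2 pairs with TLR1 or TLR6 to recognize bacterial lipopeptides, all at the cell surface. TLR3 recognizes double-stranded RNA, TLR7 and TLR8 single-stranded RNA, and TLR9 DNA with unmethylated CpG, all in endosomes. All of them except TLR3 signal through the adaptor MyD88, TLR3 and endosomal TLR4 signal through TRIF, and both routes end at NF-κB and interferon regulatory factors. Microglia are the main TLR-expressing cells of the brain parenchyma.

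The values were log2 signals that the authors had normalized before deposit, and 1 unit is a doubling. A level cannot be compared between genes, because each probe set has its own brightness. In the deposited values the 3 arrays of each replicate number have the same mean for 100% of the probe sets, within 1e-06, so any difference between replicate numbers had been taken out. A fit of group means counts 6 residual degrees of freedom where such values hold 4, and its p-values are therefore too small. For this reason each adjusted p of a call is followed by the one once a block for the replicate number is added to the fit, and the intervals of the differences are those of the blocked fit. The words called, rose and fell refer to the fit of group means unless the block is named. Each SE is also that of the fit of group means, so it does not belong to the interval beside it. For Tlr7 in GCM LN18 the SE was 0.08, and 0.09 with the block. Array medians lay between 3.39 and 3.41, so the arrays were on a common scale. The mean log2 signal over 8 measured microglia markers (Aif1, Itgam, Csf1r, Cx3cr1, P2ry12, Tmem119, C1qa and Trem2) lay between 8.15 and 8.34 in the control arrays, 8.67 and 8.71 in GCM LN18, and 8.47 and 8.68 in GCM U87. P2ry12 and Tmem119 were dim on the control arrays, at 3.36 to 3.58 and 3.64 to 4.12, so the mean rests on the brighter genes. Of these 8 genes, 4 rose in GCM LN18 (Cx3cr1, Tmem119, Aif1 and C1qa) and 1 in GCM U87 (Cx3cr1). These were 50% and 12.5% of the 8, beside 5.23% and 1.51% of all genes called. With the block 2 rose in GCM LN18 and 1 in GCM U87, beside 0.877% and 0.0468% of all genes called. The gene lists were chosen with earlier results of these data known, so these shares are a description and no test. Means over 6 astrocyte, 5 oligodendrocyte lineage, 5 neuron, 7 fibroblast and endothelial, and 4 neutrophil and B cell markers lay between 2.61 and 3.08 on all 9 arrays, below the array medians, and none of those 27 genes was called. Single genes among them lay above the medians, such as the neuron marker Rbfox3 at 3.96 to 4.08, so these means are a description and no measure of purity. Means over 5 markers of border macrophages and monocytes lay between 4.24 and 4.36. They were raised mainly by 1 of the 5, the mannose receptor Mrc1, at 8.92 to 9.33. The monocyte marker Ccr2, at 4.05 to 4.29, also lay above the array medians, and F13a1 lay at 2.96 to 3.59. Cd163 lay at 2.51 to 2.73 and Lyve1 at 2.23 to 2.45. Mrc1 fell in GCM LN18 (limma, adjusted p = 0.0375, and 0.182 with the block). The part of these marker shifts in the results below was not tested. In cultures measured as a whole, fewer cells of a type and less RNA per cell cannot be told apart.

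Tlr7 fell in GCM LN18, as 1 of the 9 measured genes, and 0 of them changed in GCM U87 at an adjusted p under 0.05 over all 17097 genes (limma, Benjamini-Hochberg). Over all genes, 5.23% were called in GCM LN18 and 1.51% in GCM U87, so 1 of 9 and 0 of 9 are close to these backgrounds. With the replicate block, 0 of the 9 genes were called in either medium, against 0.877% of all genes in GCM LN18 and 0.0468% in GCM U87. At an unadjusted p under 0.05 in limma, 3 of 9 were lower in GCM LN18 (Tlr1, Tlr4 and Tlr7), and 3 with the block. Of all genes, 20.6% passed there without the block, higher or lower. In GCM U87 3 of 9 were lower (Tlr1, Tlr6 and Tlr7), and 2 with the block. Of all genes, 17% passed there without the block, higher or lower. The share of all genes at this level with the block was not computed. None of the 9 was higher in a GCM at that level. The 9 log2 differences had a median of -0.01 in GCM LN18 and -0.07 in GCM U87, beside a median of 0.00 over all genes in both, and 6 and 7 of the 9 lay below 0. All 3 treated arrays lay below all 3 controls for 3 of the 9 genes in GCM LN18, against 12.8% of all genes, and for 1 of 9 in GCM U87, against 10.3%. No member had all treated arrays above the controls, a pattern that 11.1% of all genes showed in GCM LN18 and 8.79% in GCM U87.

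**Figure D1:**
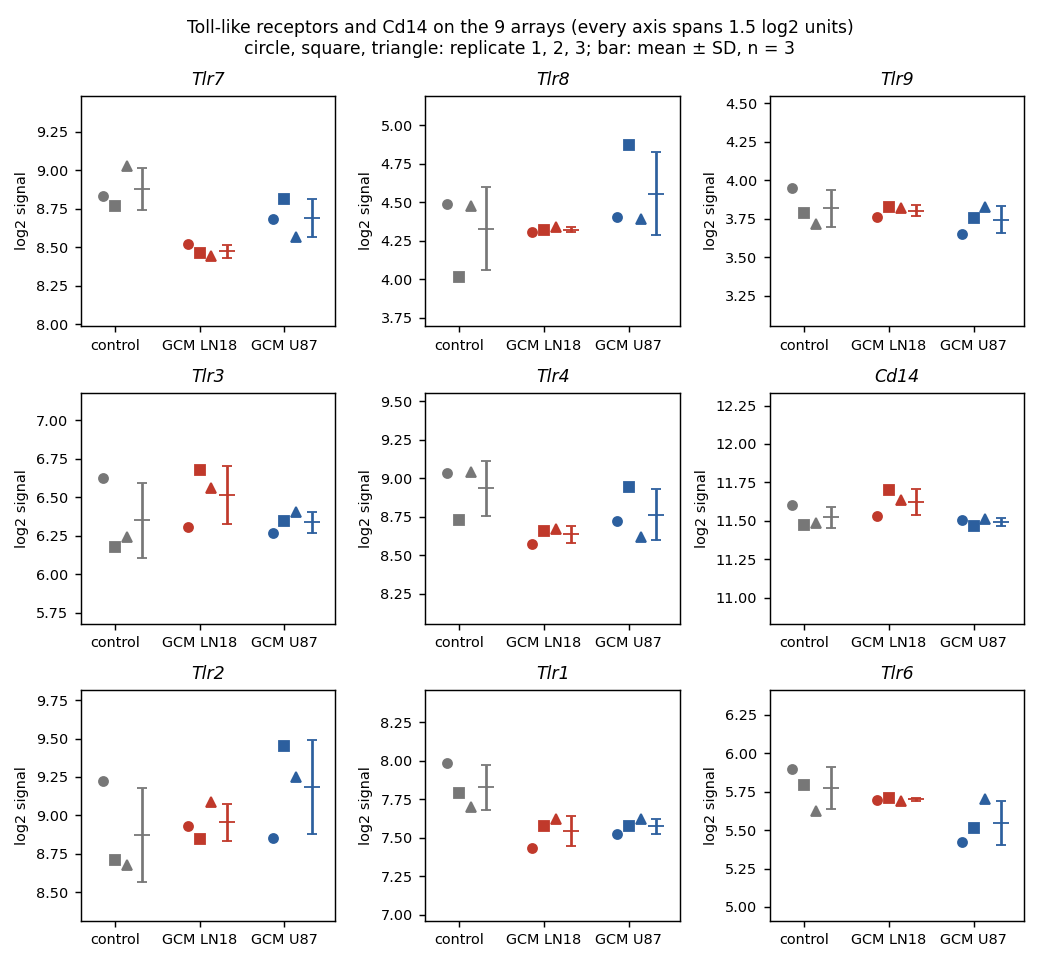
Log2 signal of the 9 measured genes on each array, by group, with circles, squares and triangles for replicates 1, 2 and 3 and a bar for the mean ± SD (n = 3); every vertical axis spans the same range but starts at a different level. The replicate means had been removed from these values, so the SD leaves out differences between replicate numbers. The GCM LN18 arrays lie below all control arrays for Tlr7, Tlr4 and Tlr1, the GCM U87 arrays do so for Tlr1, and the groups overlap in the other panels except that GCM LN18 and GCM U87 are apart for Tlr7, Tlr8 and Cd14.

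Tlr7, the endosomal sensor of single-stranded RNA, was the member with the lowest p in GCM LN18. Its log2 signal was 8.84, 8.77 and 9.03 on the control arrays (replicates 1, 2 and 3), 8.52, 8.46 and 8.44 in GCM LN18 and 8.69, 8.82 and 8.57 in GCM U87. The GCM LN18 arrays lay below every control and every GCM U87 array, while the GCM U87 arrays overlapped the controls. The log2 difference from control was -0.40 in GCM LN18 (SE 0.08, n = 3 arrays each; limma, adjusted p = 0.0212; 0.0975 with the block), a level 0.756 times that of the control. Its interval ran from -0.61 to -0.19. Taken between arrays of the same replicate number, the difference was -0.32, -0.31 and -0.59, so all 3 replicates went the same way. In GCM U87 the difference was -0.19 (adjusted p = 0.268), with same-number differences of -0.15, 0.05 and -0.46. The call in GCM LN18 was lost when any 1 of the 3 GCM LN18 arrays was left out (adjusted p = 0.0584, 0.0815 and 0.0752 without replicates 1, 2 and 3) and was kept without any 1 control or GCM U87 array. Over 19 alternatives its adjusted p lay between 0.0159 and 0.138 and it passed in 12, with the log2 difference always between -0.46 and -0.33. Apart from the replicate block, the alternatives here and below used the fit of group means. Their passes therefore share its p-values that are too small. An array that was left out had already entered the values of the other arrays of its replicate number through the removed mean. Leaving it out therefore does not take away all of its influence.

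Tlr7 has 2 dimmer probe sets, and they gave the same size of difference in GCM LN18 with a wider spread. Probe set 1419848_PM_x_at read 5.70, 5.49 and 6.00 on the controls, 5.45, 5.40 and 5.16 in GCM LN18 and 5.68, 5.94 and 5.68 in GCM U87. Probe set 1449640_PM_at read 5.54, 5.35 and 5.92 on the controls, 5.30, 5.24 and 4.92 in GCM LN18 and 5.48, 5.73 and 5.48 in GCM U87. In both, the GCM LN18 arrays lay below all others, as in the brightest probe set. Their log2 differences in GCM LN18 were -0.39 and -0.45 (adjusted p over 28898 probe sets = 0.138 and 0.133), of which 4.33% of all probe sets passed. In GCM U87 they were 0.04 and -0.04, beside -0.19 in the brightest one, so the 3 probe sets did not share a direction there.

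Tlr3, the receptor for double-stranded RNA, has 2 probe sets, of which the brightest was not called and the dimmer one was called in GCM LN18. A difference between the probe sets was not tested. Its brightest, 1422782_PM_s_at, read 6.63, 6.18 and 6.24 on the controls, 6.31, 6.68 and 6.56 in GCM LN18 and 6.27, 6.34 and 6.40 in GCM U87. These groups overlapped, and the log2 difference was 0.17 in GCM LN18 (adjusted p = 0.493, interval -0.15 to 0.48) and -0.01 in GCM U87. The second, 1422781_PM_at, read 4.28, 4.18 and 4.10 on the controls, 4.51, 4.57 and 4.57 in GCM LN18 and 4.19, 4.24 and 4.32 in GCM U87. All 3 GCM LN18 arrays lay above the other 6 in this probe set. It rose by a log2 difference of 0.36 in GCM LN18 (SE 0.05; limma, adjusted p = 0.00861 over all probe sets; 0.0717 with the block) and differed by 0.06 in GCM U87 (adjusted p = 0.607). It is the dimmer of the 2, at 4.10 to 4.57 where the array medians were 3.39 to 3.41, and the rule by which the brightest probe set stands for a gene leaves it out of the count above. In the brightest probe set replicate 1 went down, with same-number differences of -0.32 in GCM LN18 and -0.36 in GCM U87. Replicates 2 and 3 went up, with 0.50 and 0.32 in GCM LN18 and 0.16 and 0.16 in GCM U87.

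Tlr8 and Tlr9, the other endosomal members, did not differ beyond their spread. Tlr8 read 4.49, 4.02 and 4.48 on the controls, 4.31, 4.32 and 4.34 in GCM LN18 and 4.41, 4.87 and 4.39 in GCM U87. Replicate 2 held both its lowest array, the control, and its highest, GCM U87. Its log2 difference was -0.01 in GCM LN18 (interval -0.38 to 0.37) and 0.23 in GCM U87 (adjusted p = 0.470, interval -0.15 to 0.60). Tlr9, the CpG DNA receptor, lay between 3.65 and 3.95 on all 9 arrays, close to the array medians. Its log2 difference was -0.01 in GCM LN18 (interval -0.20 to 0.17) and -0.07 in GCM U87 (interval -0.26 to 0.11).

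Tlr4, the lipopolysaccharide receptor, was lower in GCM LN18 without passing the test in its brightest probe set. That probe set, 1418162_PM_at, read 9.03, 8.73 and 9.04 on the controls, 8.57, 8.66 and 8.67 in GCM LN18 and 8.72, 8.94 and 8.62 in GCM U87. The GCM LN18 arrays lay below all controls by a margin set by control replicate 2, and the GCM U87 arrays overlapped both groups. The log2 difference was -0.30 in GCM LN18 (SE 0.10; adjusted p = 0.126; 0.323 with the block; interval -0.56 to -0.04) and -0.17 in GCM U87 (adjusted p = 0.413; interval -0.43 to 0.09). The second probe set, 1418163_PM_at, read 7.10, 6.91 and 7.13 on the controls, 6.60, 6.66 and 6.74 in GCM LN18 and 6.70, 6.84 and 6.54 in GCM U87, and here both media lay below all controls. In GCM LN18 it fell by a log2 difference of -0.38 (adjusted p = 0.0434 over all probe sets; 0.172 with the block), and its log2 difference in GCM U87 was -0.35 (adjusted p = 0.0950). The brightest probe set passed in GCM LN18 when control replicate 2 was left out (adjusted p = 0.0448). Over 18 alternatives the adjusted p in GCM LN18 lay between 0.0434 and 0.323, and the log2 difference between -0.40 and -0.25.

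Cd14, the co-receptor of TLR4, was bright and nearly level. It read 11.60, 11.48 and 11.49 on the controls, 11.53, 11.70 and 11.64 in GCM LN18 and 11.51, 11.46 and 11.51 in GCM U87. Its log2 difference was 0.10 in GCM LN18 (adjusted p = 0.331; interval -0.06 to 0.26) and -0.03 in GCM U87 (adjusted p = 0.831; interval -0.18 to 0.13). Both media overlapped the controls.

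Tlr2 and its partners Tlr1 and Tlr6 showed different patterns. Tlr1, which forms the receptor for triacylated lipopeptides with TLR2, read 7.99, 7.79 and 7.70 on the controls, 7.43, 7.58 and 7.62 in GCM LN18 and 7.53, 7.58 and 7.62 in GCM U87. By the brightest probe sets, it was the only member whose arrays in both media lay below all 3 controls, and the media lay close to each other. The log2 difference was -0.28 in GCM LN18 (SE 0.08; adjusted p = 0.0709; 0.234 with the block; interval -0.49 to -0.08) and -0.25 in GCM U87 (SE 0.08; adjusted p = 0.143; 0.458 with the block; interval -0.46 to -0.05). The same-number differences in GCM LN18 were -0.55, -0.21 and -0.08 and in GCM U87 -0.46, -0.21 and -0.08, so their size came mostly from replicate 1. Both media were compared with the same 3 control arrays, so the likeness of these values is no independent repeat. Tlr1 passed in GCM LN18 only without control replicate 3 (adjusted p = 0.0477), and over 17 alternatives its adjusted p there lay between 0.0477 and 0.234.

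Tlr2 read 9.23, 8.71 and 8.68 on the controls, 8.93, 8.85 and 9.08 in GCM LN18 and 8.85, 9.45 and 9.25 in GCM U87. Control replicate 1 stood above the other controls and within the range of GCM U87. The log2 difference was 0.08 in GCM LN18 (interval -0.35 to 0.52) and 0.31 in GCM U87 (adjusted p = 0.392; interval -0.12 to 0.75). In GCM U87 the same-number differences were -0.37, 0.74 and 0.57, so replicate 1 went the other way. Tlr6, the partner for diacylated lipopeptides, read 5.90, 5.79 and 5.62 on the controls, 5.70, 5.71 and 5.69 in GCM LN18 and 5.42, 5.51 and 5.70 in GCM U87. Its log2 difference was -0.07 in GCM LN18 (interval -0.29 to 0.14) and -0.23 in GCM U87 (adjusted p = 0.205; interval -0.44 to -0.01), with the groups overlapping in both.

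**Figure D2:**
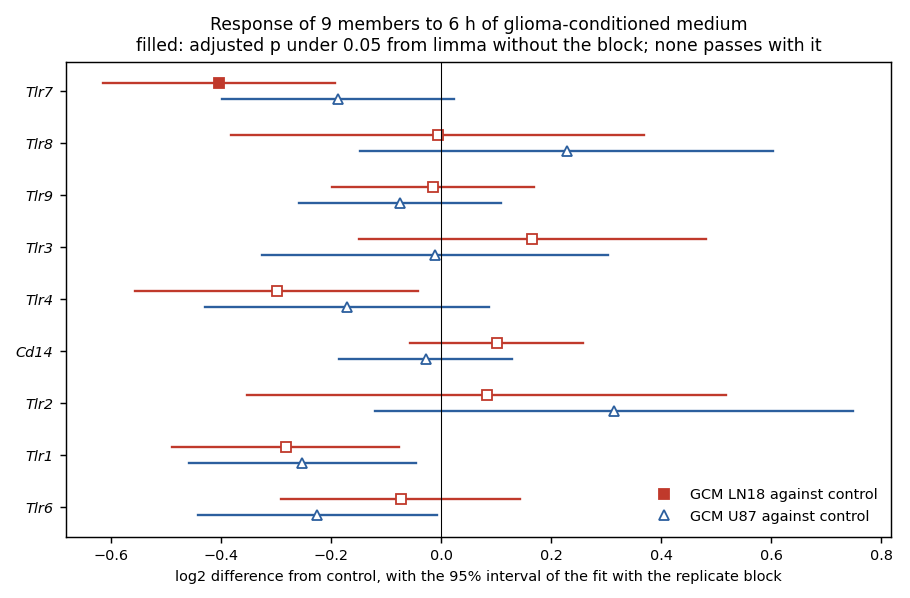
Log2 difference of each measured gene from control in GCM LN18 (red squares) and GCM U87 (blue triangles), with the 95% interval from the fit with the replicate block; a filled symbol passed an adjusted p under 0.05 in the fit without the block. Tlr7 in GCM LN18, at -0.40, is the filled point, and Tlr1 lies at -0.28 and -0.25 in the 2 media.

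The second question was whether the media of the 2 glioma lines differed in their effect. Between GCM LN18 and GCM U87, 0 of the 9 genes were called, and 1 gene was called over all genes (0.00585%; the class II chaperone subunit H2-DMb2, adjusted p = 0.0431, limma; 0.917 with the block, where 0% of genes passed). Before adjustment, 2 of 9 members passed 0.05 in limma, against 12% of all genes: Tlr7 was lower in GCM LN18 by a log2 difference of -0.22 (adjusted p = 0.337; interval -0.43 to -0.01) and Cd14 higher by 0.13 (adjusted p = 0.389; interval -0.03 to 0.29). Both went the same way in all 3 replicate numbers, at -0.17, -0.35 and -0.13 for Tlr7 and 0.02, 0.24 and 0.13 for Cd14. Tlr8 was also lower in GCM LN18 on every array, by -0.23 (adjusted p = 0.560), a mean set mainly by replicate 2. In the dimmer Tlr3 probe set GCM LN18 stood 0.30 above GCM U87 (limma, adjusted p = 0.157 over all probe sets). The dimmer Tlr7 probe sets 1419848_PM_x_at and 1449640_PM_at differed by -0.43 and -0.41 (adjusted p = 0.285 and 0.346), a larger size than in the brightest. The second Tlr4 probe set differed by -0.03 (adjusted p = 0.928). For the other members the interval of the difference between media ran from -0.24 to 0.18 for Tlr1, -0.67 to 0.20 for Tlr2, -0.14 to 0.49 for the brightest Tlr3 probe set, -0.39 to 0.13 for Tlr4, -0.07 to 0.37 for Tlr6 and -0.12 to 0.24 for Tlr9. Each of these intervals includes 0, and none shows that the media act alike.

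**Figure D3:**
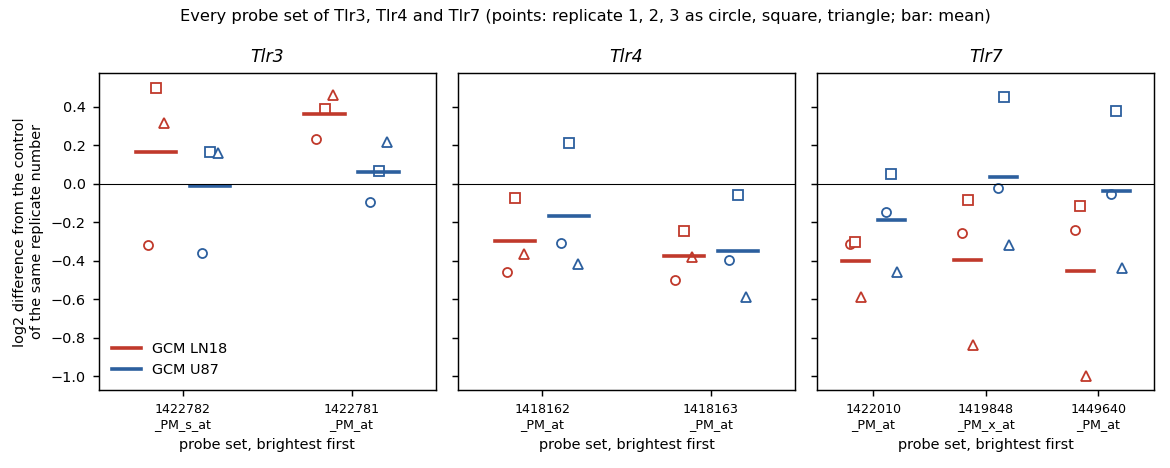
Every probe set of the 3 members with more than 1, from the brightest to the dimmest; points are log2 differences between a GCM array and the control array of the same replicate number, and bars are their means. In GCM LN18 (red) all points of Tlr4 and Tlr7 lie below 0 and those of the second Tlr3 probe set lie above it, while in GCM U87 (blue) replicate 2 of Tlr7 lies above 0 in all 3 probe sets.

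Of the TLRs that the rule did not take up, Tlr5 and Tlr12 have a probe set. Tlr5, the flagellin receptor, read 3.94, 3.93 and 3.93 on the controls, 3.98, 4.14 and 4.11 in GCM LN18 and 4.21, 4.06 and 4.08 in GCM U87. Both media lay above all controls, at log2 differences of 0.15 (limma, adjusted p = 0.168) and 0.19 (adjusted p = 0.132). With the block, the adjusted p over all probe sets was 0.494 and 0.508. The probe set is dim, at 3.93 to 4.21 where the array medians were 3.39 to 3.41. Tlr12 lay between 3.28 and 3.39 on every array, at or below the array medians.

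The genes that carry a TLR signal were followed in 70 measured genes of 75 listed by role. In GCM LN18, 2 of them rose and 5 fell (10% of the 70, beside 5.23% of all genes; 3 with the block), and in GCM U87 2 rose and 2 fell (5.71%, beside 1.51%; 0 with the block). This list too was chosen with earlier results of these data known, so its shares are a description and no test of the pathway. The median log2 difference of the 70 was -0.04 in both media, beside 0.00 over all genes. Between the media 0 of the 70 were called and 7 had an unadjusted p under 0.05 (10%, beside 12% of all genes). In the fit without the block, all the genes that fell were induced targets, while those that rose were a co-receptor, a transcription factor and an inhibitor.

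Among 10 co-receptors and chaperones, 0 were called in GCM LN18 and Ly86 rose in GCM U87. Ly86 encodes MD-1, the partner of the TLR4 homologue RP105. It read 10.83, 10.72 and 10.89 on the controls, 11.12, 11.20 and 11.08 in GCM U87 and 10.98, 11.00 and 10.95 in GCM LN18. The GCM U87 arrays lay above all others, with a log2 difference of 0.32 (SE 0.05; adjusted p = 0.0275; 0.198 with the block). In GCM LN18 the difference was 0.16 (adjusted p = 0.112). Cnpy4, a chaperone of surface TLRs, had the lowest p of this role in GCM LN18, at 0.22 (adjusted p = 0.0862). Of 5 measured adaptors 0 were called, and Myd88 had the lowest p in both media, at -0.18 (adjusted p = 0.0822) in GCM LN18 and -0.15 (adjusted p = 0.188) in GCM U87. Of 14 kinases and ubiquitin ligases 0 were called. The lowest p belonged to Map3k8, the kinase TPL2, in GCM LN18, at -0.32 (adjusted p = 0.260), and to Irak1 in GCM U87, at 0.12 (adjusted p = 0.270).

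Among 8 transcription factors, Irf8 rose in both media without the block and in GCM LN18 alone with it. IRF8 is a lineage factor of microglia and macrophages that also acts downstream of TLRs. It read 8.55, 8.65 and 8.60 on the controls, 8.96, 8.89 and 8.93 in GCM LN18 and 8.91, 8.88 and 8.88 in GCM U87, so both media lay above all controls. Irf8 stood higher by 0.33 in GCM LN18 (SE 0.04; adjusted p = 0.00309; 0.0480 with the block) and 0.29 in GCM U87 (SE 0.04; adjusted p = 0.0167; 0.174 with the block). Among 13 inhibitors, Inpp5d, which encodes the phosphatase SHIP1, rose in GCM LN18. It read 8.12, 8.14 and 8.13 on the controls, 8.61, 8.67 and 8.49 in GCM LN18 and 8.38, 8.30 and 8.49 in GCM U87. Inpp5d stood higher by 0.46 in GCM LN18 (SE 0.06; adjusted p = 0.00395; 0.0383 with the block) and 0.26 in GCM U87 (adjusted p = 0.0685; 0.334 with the block). The 12 other inhibitors were not called in either medium.

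Of 20 induced targets, 5 fell and 0 rose in GCM LN18, and 2 fell and 0 rose in GCM U87. These were 25% and 10% of the 20, beside 5.23% and 1.51% of all genes. With the block, 1 of the 20 was called in GCM LN18 and 0 in GCM U87, beside 0.877% and 0.0468% of all genes. The list was chosen with earlier results of these data known, so an excess of calls in it may come from that choice. All genes also include dim ones, and 10652 of the 17097 stayed when dim genes were left out. Some of the 20 are dim too, such as Il6 at 2.03 to 2.32. The shares are therefore a description and no test of the targets as a set. The 5 that fell in GCM LN18 were the interleukin-1 receptor antagonist Il1rn, the chemokines Cxcl2, Ccl3 and Ccl4, and Ptgs2, the cyclooxygenase that makes prostaglandins. Il1rn read 5.78, 5.72 and 5.89 on the controls, 5.39, 5.27 and 5.31 in GCM LN18 and 5.23, 5.41 and 5.20 in GCM U87. It fell in both media, by a log2 difference of -0.47 (adjusted p = 0.00583; 0.0458 with the block) and -0.51 (adjusted p = 0.0130; 0.105 with the block), and no treated array reached the controls. Ccl3, which encodes MIP-1α, also fell in both, by -0.42 (adjusted p = 0.0163; 0.0825 with the block) and -0.40 (adjusted p = 0.0451; 0.220 with the block).

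Cxcl2, a neutrophil-attracting chemokine, read 7.76, 7.37 and 6.80 on the controls, 5.72, 5.81 and 6.51 in GCM LN18 and 6.31, 6.61 and 6.48 in GCM U87. Both media lay below all controls, and the same-number differences in GCM LN18 were -2.04, -1.57 and -0.28. In GCM LN18 it fell by a log2 difference of -1.30 (SE 0.26; adjusted p = 0.0233; 0.0825 with the block), and in GCM U87 the difference was -0.84 (adjusted p = 0.146). Ptgs2 read 5.51, 4.99 and 5.50 on the controls, 4.06, 4.55 and 4.46 in GCM LN18 and 5.40, 5.44 and 5.01 in GCM U87. It fell in GCM LN18 by -0.98 (SE 0.18; adjusted p = 0.0168; 0.0674 with the block), while its difference in GCM U87 was -0.05 (adjusted p = 0.911). Between the media it differed by -0.92 without passing (adjusted p = 0.151). Ccl4, which encodes MIP-1β, fell in GCM LN18 by -0.50 (adjusted p = 0.0233; 0.0926 with the block), with -0.35 in GCM U87 (adjusted p = 0.123). Tnf, which the rule for named genes does not take up and which is given for its place in the pathway, had differences of -0.53 (adjusted p = 0.0663) and -0.42 (adjusted p = 0.179). The interferon target Cxcl10, also outside that rule, had the largest SE of the 20 targets (0.53), with same-number differences in GCM LN18 of -1.04, 1.53 and 1.89 (adjusted p = 0.441).

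**Figure D4:**
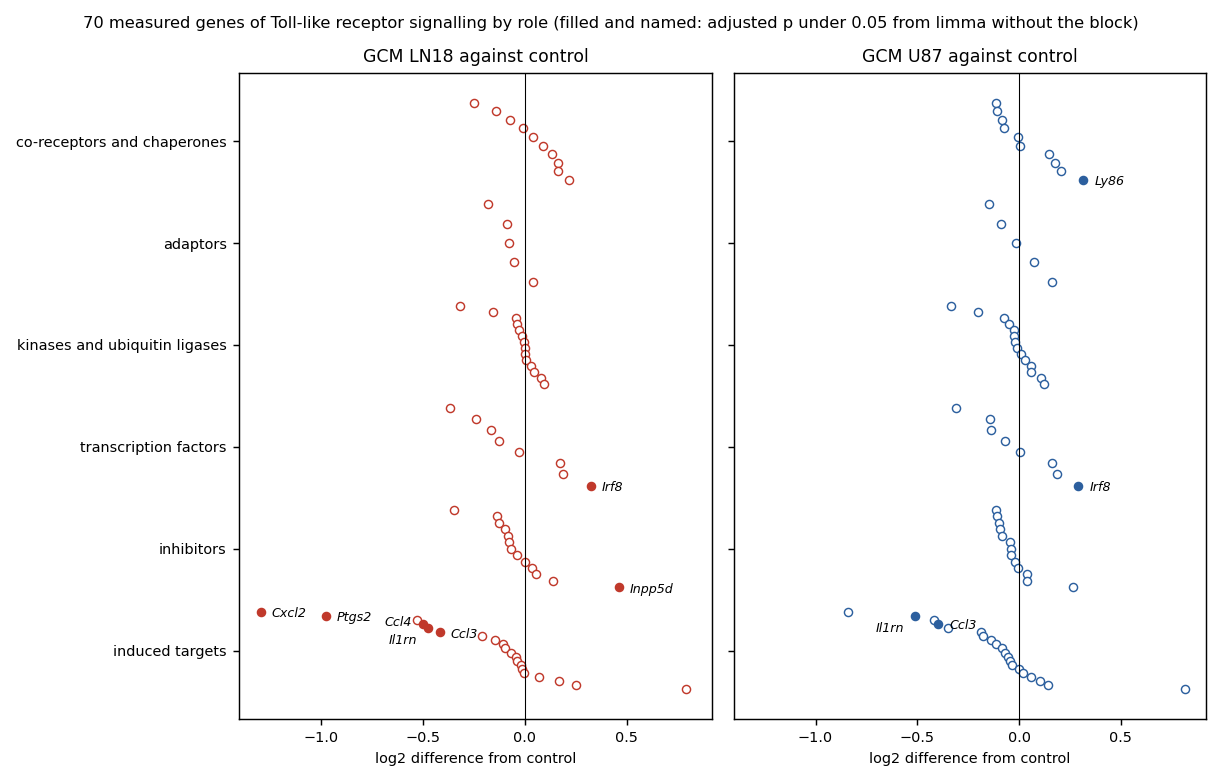
Log2 difference from control of 70 genes of TLR signalling, grouped by role and ordered by value within a role, in GCM LN18 (left) and GCM U87 (right); filled, named points passed an adjusted p under 0.05 in the fit without the replicate block. Named points to the left of 0 lie in the row of induced targets, and those to the right are Irf8 in both media, Inpp5d in GCM LN18 and Ly86 in GCM U87.

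Among 11 other innate sensors measured of 14 listed, Clec7a fell in GCM LN18 (9.09% of the 11, beside 5.23% of all genes). In GCM U87 0 of the 11 were called, beside 1.51% of all genes. A list this short gives little information by its counts. Clec7a encodes Dectin-1, the receptor for fungal β-glucan. It read 11.37, 11.21 and 11.28 on the controls, 10.96, 11.01 and 11.03 in GCM LN18 and 11.05, 11.17 and 11.08 in GCM U87. Clec7a differed from control by -0.28 in GCM LN18 (SE 0.05; adjusted p = 0.0157; 0.106 with the block) and -0.19 in GCM U87 (adjusted p = 0.116). The other 10 sensors, among them Nlrp3, Ifih1, Cgas and Sting1, were not called in either medium.

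The genes whose pattern over the 9 arrays was most like that of the 2 members with the lowest p in GCM LN18 were taken by Pearson's r. For Tlr7 they were Tmem60 (r = 0.988), Ppm1h (r = 0.984) and Dusp22 (r = 0.984), with log2 differences in GCM LN18 of -0.15, -0.33 and -0.25. For Tlr1 they were 4930566D17Rik (r = 0.997), Eprs (r = 0.996) and Cyb5r1 (r = 0.995), with -0.15, -0.46 and -0.41. Among the members themselves, Tlr7 and Tlr4 had r = 0.878 and Cd14 and Tlr3 r = 0.908. All of these points share the 9 arrays and the removed replicate means, and the highest of 17097 values are high by selection, so they are given as a description.

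Tlr1 and Tlr6 are neighbouring genes on chromosome 5, and Tlr7 and Tlr8 on chromosome X, in the RefSeq table. In GCM LN18 the log2 differences were -0.28 and -0.07 for the neighbours Tlr1 and Tlr6, and -0.40 and -0.01 for Tlr7 and Tlr8. These pairs were not compared by a test. Promoter windows of 300 bases, from 250 before to 50 after a RefSeq start, were given for 7 of the 10 genes as 9 windows (build GRCm38.p6). Below are 3 of them, chosen because they hold a match to a searched motif and belong to Tlr1, Tlr6 and Tlr3. Tlr1 and Tlr6 have 2 windows each, and the other window of each, not shown, holds 0 matches. Capitals mark letters that match 1 of 4 searched motifs, read 5′ to 3′ on the strand of the gene.
Tlr1, chr5:64933509-64933808, minus strand: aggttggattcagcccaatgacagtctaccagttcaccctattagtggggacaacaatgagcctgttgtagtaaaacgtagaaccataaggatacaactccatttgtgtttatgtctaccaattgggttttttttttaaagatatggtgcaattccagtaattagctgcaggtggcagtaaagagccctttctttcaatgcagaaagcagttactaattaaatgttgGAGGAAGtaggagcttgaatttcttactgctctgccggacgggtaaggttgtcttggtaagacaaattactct
Tlr6, chr5:64959117-64959416, minus strand: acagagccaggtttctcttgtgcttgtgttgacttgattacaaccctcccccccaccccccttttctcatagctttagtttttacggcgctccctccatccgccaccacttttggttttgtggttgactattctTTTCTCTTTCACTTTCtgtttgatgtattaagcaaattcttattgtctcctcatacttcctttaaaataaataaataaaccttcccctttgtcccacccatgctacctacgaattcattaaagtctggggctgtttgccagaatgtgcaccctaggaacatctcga
Tlr3, chr8:45410331-45410630, minus strand: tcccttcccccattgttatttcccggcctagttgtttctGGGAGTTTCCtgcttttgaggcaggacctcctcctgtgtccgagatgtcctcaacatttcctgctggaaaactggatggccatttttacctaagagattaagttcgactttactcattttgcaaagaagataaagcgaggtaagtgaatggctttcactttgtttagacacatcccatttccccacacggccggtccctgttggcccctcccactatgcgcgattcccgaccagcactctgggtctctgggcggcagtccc
The searched letters were GGGANNTTCC for NF-κB, GGAANNGAAA for a composite of PU.1 and an interferon regulatory factor, GAAANNGAAA for an interferon response element and GAGGAAG for PU.1, on both strands. The Tlr1 window shown holds the PU.1 letters with their first base 23 bases before the start, and 13.6% of all 32851 windows hold them. The Tlr6 window shown holds 2 overlapping interferon-response matches on the opposite strand, at 116 and 110 bases before the start, letters found in 3.44% of windows. The Tlr3 window holds an NF-κB match 211 bases before the start, found in 1.47% of windows. The PU.1 letters also lie in the windows of Tlr9 and Tlr13, and the composite, present in 2.72% of windows, in 0 of the 9. A match describes letters and is neither a binding site nor a cause of any value above.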

How the data were processed

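Primary murine microglia were profiled on 9 arrays, grouped by the titles in the labels. The authors deposited a table of 45141 probe sets in log2 units, normalized by them. The submitters' processing notes name limma. The methods name RMA for pre-processing next to the public data sets, without saying that it covers the present arrays. Control probe sets (104) and those with several symbols (551) or none (15588) were left out. The brightest of the 28898 others stood for each of 17097 genes. limma 3.58.1 (R 4.3.3) fitted 1 mean per group over all 9 arrays, with Benjamini-Hochberg adjustment over all genes at 0.05. The design text says that the 3 replicates came from separate cultures. The equal means of replicate numbers pair the arrays in the values, although same-numbered deviations correlate at -0.72 to -0.06, as removal of a mean makes them. Arrays have no read depth, and their number limits the precision.

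The members and gene lists were chosen with earlier results of these data known. Named were all members, the other TLRs, the pathway and sensor genes called in either medium, the gene with the lowest p in each medium for a role with no call, and the 3 genes most correlated with each of the 2 members of lowest p in GCM LN18. Other settings tried were quantile normalization, median centring, array weights, leaving out dim genes, trended and robust eBayes, the mean of probe sets or any of them, only the groups compared, a replicate block and each array left out. The fit was tested on simulated data.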

Additional observations from a re-analysis of the deposited data

How the results depend on the processing

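With the replicate block, the members called in GCM LN18 went from 1 to 0, the pathway genes called from 7 to 3 in GCM LN18 and from 4 to 0 in GCM U87. Taking the mean of the probe sets left 0 members called in GCM LN18, and counting any probe set gave 3 (Tlr3, Tlr4 and Tlr7). Fitting only the groups compared left 0 pathway genes called in GCM U87. With arrays left out in turn, the members called in GCM LN18 ranged from 0, without any 1 GCM LN18 array, to 2, without control replicate 2 or 3. The pathway genes called ranged from 3 to 7 in GCM LN18, namely 4 without control replicate 1 or GCM LN18 replicate 2, and 3 when GCM LN18 replicate 1 was left out. For GCM U87 they ranged from 0 to 3, with 0 without GCM U87 replicate 1 or 3, 1 without control replicate 1, and 2 without control replicate 2, GCM U87 replicate 2, or GCM LN18 replicate 2 or 3. The cause was not tested.

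The sign of a difference turned in the following cases, none of which was called. Tlr3 in GCM U87 was 0.0251 by the mean of its probe sets, 0.0619 in probe set 1422781_PM_at and 0.0232 with array weights, and ranged from -0.0963 to 0.127 with arrays left out. Tlr7 in GCM U87, at -0.19 in its brightest probe set, was 0.0365 in probe set 1419848_PM_x_at. With array weights Tlr8 and Tlr9 in GCM LN18 were 0.0160 and 0.00709. With arrays left out, Tlr8 ranged from -0.162 to 0.0747, Tlr9 from -0.0659 to 0.0523 and Tlr2 from -0.0149 to 0.260 in GCM LN18, Cd14 from -0.0513 to 0.0127 in GCM U87, and Tlr1 from -0.0693 to 0.0263 between the media.

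In all 3 comparisons, 216 of 228 values of members under alternatives that keep every array, and 228 of 243 with an array left out, kept both their direction and their side of the threshold. Most of these values had no call to lose, because Tlr7 in GCM LN18 was the only member called in the main fit. That call passed in 12 of its 19 alternatives. The count of members called was 0 in GCM U87 and between the media under every alternative run. With 3 arrays per group and no calls of detection in the table, a dim probe set near the array medians, such as that of Tlr9, gives no firm statement about its transcript.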
